A study of Homo sapiens with 16 samples.

Results

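INPP5D, INPPL1, INPP4B, PIK3IP1, PHLDA3, PHLPP1, PHLPP2 and PIK3R3 are 8 genes that act on the PI3K-AKT pathway, mostly as brakes, and their RNA was followed across 4 groups of U2OS cells. The 8 genes were taken by name from the 28705 genes that could be matched between the count tables of both experiments, and all 8 were found and passed the filter on low counts (16446 genes passed over all libraries). INPP5D and PIK3IP1 were chosen by their log2 fold changes in earlier results of these data, in WT under 5-FU and between the genotypes, so the 5-FU response in WT, its difference between genotypes and the genotype comparison under 5-FU are given for the 8 genes as a description, without a test. Their response to 5-FU in W329G and their genotype comparison under DMSO are given with a test, but the 8 genes were chosen with these results known too.

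U2OS is a human osteosarcoma cell line with wild-type p53. The groups were MDM2 W329G cells, made from U2OS by CRISPR/Cas9 editing, given 5-FU, W329G cells given DMSO, unedited WT cells given 5-FU, and WT cells given DMSO. MDM2 is the ubiquitin ligase that keeps p53 low. 5-FU (5-fluorouracil) is a pyrimidine analog used in chemotherapy, given at 50 µM for 24 h, and DMSO is the solvent control. There were 2 lines of each genotype (cells 1 and cells 2 in the titles), so a genotype difference rests on 2 lines a side. The work was done in 2 experiments whose libraries came from different sequencing vendors, which gave 16 poly-A RNA-seq libraries, 4 per group. Replicates are numbered so that experiment 1 holds replicates 1 (cells 1) and 2 (cells 2), and experiment 2 replicates 3 (cells 1) and 4 (cells 2).

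Class I PI3K makes the membrane lipid PIP3, to which AKT binds in order to be switched on, and AKT holds FOXO transcription factors out of the nucleus. The pathway is slowed at several steps: lipid phosphatases such as INPP5D (SHIP1), INPPL1 (SHIP2) and INPP4B take phosphates off PIP3 or its product, PIK3IP1 binds the p110 catalytic subunit, PHLDA3 competes with AKT for the lipid, and PHLPP1 and PHLPP2 dephosphorylate AKT. PIK3R3 is not a brake in the same sense: it encodes p55 gamma, a regulatory subunit that both holds p110 stable and restrains it. INPP5D is best known from blood cells, and PHLDA3 is a known p53 target gene. On GRCh38, by the coordinates of the experiment 1 tables, the genes lie at chr2:233059967-233207903 on the plus strand (INPP5D), chr11:72223701-72239105 on the plus strand (INPPL1), chr4:142023160-142847432 on the minus strand (INPP4B), chr22:31281593-31292534 on the minus strand (PIK3IP1), chr1:201464383-201469237 on the minus strand (PHLDA3), chr18:62715450-62980433 on the plus strand (PHLPP1), chr16:71637835-71724701 on the minus strand (PHLPP2) and chr1:46040140-46133036 on the minus strand (PIK3R3).

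The promoters of INPP5D, PIK3IP1 and PIK3R3 are shown because these genes had higher levels under 5-FU in WT cells than under DMSO. Each is a RefSeq window on GRCh38.p14 from 250 bases before to 50 after an annotated start, read 5′ to 3′ on the gene's strand, at chr2:233060092-233060391 (plus strand) for INPP5D, chr22:31292439-31292738 (minus strand) for PIK3IP1 and chr1:46132746-46133045 (minus strand) for PIK3R3. Capitals mark the FOXO core TGTTTAC in PIK3IP1 and a p53 half-site in PIK3R3. INPP5D had 1 window, PIK3IP1 had 2 and PIK3R3 had 6. For PIK3IP1 and PIK3R3 a window with a motif match is shown, so it does not stand for their other windows. PHLDA3, also higher under 5-FU in WT cells, had no window to search.
INPP5D: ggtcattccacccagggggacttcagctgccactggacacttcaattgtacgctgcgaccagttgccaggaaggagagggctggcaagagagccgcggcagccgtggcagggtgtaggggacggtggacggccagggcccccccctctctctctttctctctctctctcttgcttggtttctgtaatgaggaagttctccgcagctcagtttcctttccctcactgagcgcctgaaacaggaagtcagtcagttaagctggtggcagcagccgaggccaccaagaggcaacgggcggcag
PIK3IP1: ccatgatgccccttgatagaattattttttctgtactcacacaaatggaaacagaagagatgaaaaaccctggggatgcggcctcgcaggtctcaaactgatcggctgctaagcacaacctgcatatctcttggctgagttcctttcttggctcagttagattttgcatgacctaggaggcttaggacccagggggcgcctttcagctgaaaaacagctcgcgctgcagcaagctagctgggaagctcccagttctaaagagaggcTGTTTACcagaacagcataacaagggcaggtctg
PIK3R3: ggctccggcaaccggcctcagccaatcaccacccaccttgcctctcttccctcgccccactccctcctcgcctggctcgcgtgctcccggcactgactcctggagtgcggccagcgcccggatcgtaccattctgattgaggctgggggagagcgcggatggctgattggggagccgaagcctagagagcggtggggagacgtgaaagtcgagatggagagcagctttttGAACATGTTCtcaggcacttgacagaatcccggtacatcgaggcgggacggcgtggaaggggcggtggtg
The windows were searched for the p53 half-site, by its textbook consensus, and for TGTTTAC, both on either strand, and no match of the 2 motifs overlapped another in the windows shown. The half-site GAACATGTTC of PIK3R3 lay at position -20 from that start and also in a second, overlapping PIK3R3 window at position -186 from its own start, which is the same genomic site (chr1:46132806-46132815). INPP4B had a half-site, AGACTTGCTT, at position -243 of 1 window. The other windows of the 7 genes that have an entry held no half-site, none held 2 half-sites within 13 bases of each other, and 1 window of PIK3IP1 held TGTTTAC. A half-site was in 6.6% of all 35116 promoter windows, TGTTTAC in 3.4%, and half-sites up to 13 bases apart in 0.03%. These are letter matches and say nothing about binding.

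The libraries held between 24715999 and 56877328 counts. Of the osteoblast lineage markers, COL1A1 ran from 2334 to 9200 CPM (counts of a gene scaled to a common library size) and RUNX2 from 21.6 to 75.8 CPM. CDH11 ran from 17.0 to 76.6 CPM and SPP1 from 6.83 to 64.9 CPM. COL1A2 (0.198 to 9.02 CPM) and ALPL (0.168 to 8.17 CPM) were low, and the late markers SP7 and BGLAP were near 0. The leukocyte gene PTPRC stayed at or below 1.66 CPM in every library and the T cell gene CD3E at or near 0. LYZ, a blood cell gene, was at 37.7 to 130 CPM in all libraries of experiment 1 and at most 0.0722 CPM in experiment 2, so that the summed level of the 9 blood markers ran from 41.2 to 137 CPM in experiment 1 and from 2.93 to 3.78 CPM in experiment 2. Among the epithelial markers, group means of KRT19 were 24.9 to 29.6 CPM in experiment 1 and at most 0.0233 CPM in experiment 2. Those of CDH1 were 4.07 to 9.6 CPM and 0.0791 to 0.461 CPM. KRT8 ran from 31.3 to 406 CPM over all libraries, KRT18 from 95.8 to 260 CPM and EPCAM from 3.49 to 19.8 CPM. Mitochondrially encoded genes took from 7.14% to 31.84% of the counts. The p53 target genes MDM2 and CDKN1A served as a check of the labels. MDM2 averaged 75.2 ± 19.4 CPM in W329G 5-FU, 72.8 ± 31.8 CPM in W329G DMSO, 229 ± 42.5 CPM in WT 5-FU and 60.9 ± 18.4 CPM in WT DMSO libraries (SD, n = 4 each). CDKN1A averaged 155 ± 66.8 CPM in W329G 5-FU, 93.9 ± 33.8 CPM in W329G DMSO, 679 ± 336 CPM in WT 5-FU and 118 ± 37.7 CPM in WT DMSO libraries. The counts do not show the edited codon, so the genotype itself was taken from the labels.

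INPP5D, a phosphatase that removes the 5-phosphate of PIP3, was the member with the widest range. In W329G cells under 5-FU it had 2.88, 4.44, 2.35 and 2.07 CPM in replicates 1 to 4. W329G cells under DMSO had 2.37, 3.48, 2.69 and 1.22 CPM. WT cells under 5-FU had 27.6, 12.3, 18.8 and 16.5 CPM, against 2.49, 1.99, 2.38 and 1.72 CPM in WT cells under DMSO. The 4 WT libraries under 5-FU stood apart from all 12 others, whose highest value was 4.44 CPM. The WT response was a log2 fold change of 3.12 ± 0.31 (SE), or 8.70-fold, and was 3.16 in experiment 1 and 3.10 in experiment 2. In W329G cells the response was 0.25 ± 0.29 (edgeR's quasi-likelihood test with Benjamini-Hochberg adjustment over all genes, adjusted p = 0.781), with 3 of 4 pairs of the same line and experiment higher under 5-FU. The difference of the responses, W329G minus WT, was -2.87 ± 0.42, and was -2.84 in experiment 1 and -2.95 in experiment 2. Raw counts were low outside WT 5-FU, at 37 to 131 under DMSO and 95 to 123 in W329G under 5-FU. The summed blood markers were at 98.1 to 137 CPM in W329G 5-FU, 41.2 to 74.5 CPM in W329G DMSO, 95.8 to 116 CPM in WT 5-FU and 72.7 to 97.6 CPM in WT DMSO libraries of experiment 1. In experiment 2 they were at 3.37 to 3.78 CPM in W329G 5-FU, 3.01 to 3.13 CPM in W329G DMSO, 3.22 to 3.76 CPM in WT 5-FU and 2.93 to 3.14 CPM in WT DMSO libraries. The sums were thus above DMSO under 5-FU without overlap in both genotypes and experiments, except in WT of experiment 1, where the ranges overlapped. Each range holds 2 libraries, and nothing is read from this. In experiment 1 the sum was mostly LYZ, with means of 110 and 53.9 CPM in W329G and 99.4 and 79.4 CPM in WT under 5-FU and DMSO. PTPRC averaged 0.782 and 0.642 CPM in W329G and 0.803 and 0.868 CPM in WT over both experiments. The part of the blood markers in the INPP5D result was not tested. In bulk libraries more expressing cells and more RNA per cell cannot be told apart, here or in any result that follows.

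INPPL1 and INPP4B, the other inositol lipid phosphatases of the set, overlapped between all groups. INPPL1, the widely expressed relative of INPP5D, ran from 153 to 357 CPM in W329G 5-FU, 128 to 238 CPM in W329G DMSO, 127 to 277 CPM in WT 5-FU and 139 to 230 CPM in WT DMSO libraries. The experiments differed: its mean in WT 5-FU was 129 CPM in experiment 1 and 262 CPM in experiment 2. The W329G response of INPPL1 was 0.39 ± 0.17 (edgeR adjusted p = 0.32), higher under 5-FU in 4 of 4 pairs, and its WT response 0.10 ± 0.17, higher in 2 of 4 pairs. INPP4B, which removes the 4-phosphate of PI(3,4)P2, ran from 25.5 to 41.3 CPM in W329G 5-FU, 28.8 to 43.4 CPM in W329G DMSO, 28.8 to 41.2 CPM in WT 5-FU and 33.9 to 51.1 CPM in WT DMSO libraries. Its W329G response was -0.17 ± 0.16 (edgeR adjusted p = 0.704), lower under 5-FU in 4 of 4 pairs, and its WT response -0.26 ± 0.16, lower in 3 of 4 pairs.

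The 2 members that bind the PI3K catalytic subunit had responses on opposite sides of 0 in the 2 genotypes. PIK3IP1, a transmembrane protein that binds p110 and lowers PI3K activity, had 7.51, 12.5, 8.97 and 4.43 CPM in W329G 5-FU and 11.2, 12.5, 11 and 5.90 CPM in W329G DMSO libraries. WT libraries had 31.6, 23.5, 33.0 and 24.1 CPM under 5-FU, against 9.51, 6.04, 8.66 and 5.26 CPM under DMSO. The lowest WT 5-FU library was above the highest of the other 12, which was at 12.5 CPM. The WT response was 1.94 ± 0.28 on the log2 scale (3.83-fold), higher under 5-FU in 4 of 4 pairs. In W329G it was -0.29 ± 0.28 (edgeR adjusted p = 0.713), with 4 of 4 pairs below 0 but 1 of them, cells 2 of experiment 1, only at -0.002. The difference was -2.23 ± 0.40, and was -2.09 in experiment 1 and -2.39 in experiment 2.

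PIK3R3, the regulatory subunit p55 gamma, had 28.4, 13.1, 26.8 and 34.5 CPM in W329G 5-FU and 38.5, 20.5, 33.2 and 37.2 CPM in W329G DMSO libraries. WT libraries had 26.9, 45.4, 55.6 and 48.0 CPM under 5-FU, against 14.7, 22.2, 26.0 and 23.3 CPM under DMSO. The WT groups did not overlap, though narrowly, with 26.9 CPM as the lowest under 5-FU and 26.0 CPM as the highest under DMSO. Its WT response was 1.02 ± 0.24 (2.03-fold), and the 4 pairs lay close together, from 0.87 to 1.09. In W329G the response was -0.35 ± 0.24, with all 4 pairs lower under 5-FU, and did not pass the test without pairing (edgeR adjusted p = 0.583). With line and experiment as a replicate block it was -0.37 ± 0.10 and passed (edgeR adjusted p = 0.0287). The difference of the responses was -1.37 ± 0.34.

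Of the 3 members that act on AKT itself, PHLDA3 was higher under 5-FU in every pair of both genotypes. PHLDA3, whose PH domain competes with that of AKT for PIP3, had 75.9, 77.5, 55.1 and 40.4 CPM in W329G 5-FU and 46.2, 65.7, 30.8 and 20.4 CPM in W329G DMSO libraries. WT libraries had 179, 205, 91.1 and 93.2 CPM under 5-FU, against 57.7, 68.6, 33.1 and 25.9 CPM under DMSO. Every library of experiment 1 was above both libraries of experiment 2 in its group, and the WT 5-FU libraries were the highest within each experiment. The WT response was 1.62 ± 0.17 (3.08-fold). The W329G response was 0.68 ± 0.16 (1.6-fold), higher in 4 of 4 pairs, at 0.46 in experiment 1 and 0.88 in experiment 2. It missed the threshold without pairing (edgeR adjusted p = 0.0691) and passed with the replicate block (0.69 ± 0.11, edgeR adjusted p = 0.00312) and in DESeq2 (adjusted p = 0.00639). The difference between genotypes was -0.94 ± 0.23.

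PHLPP1 and PHLPP2, phosphatases that act on the hydrophobic motif of AKT, did not share this pattern. PHLPP1 ran from 4.77 to 9.66 CPM in W329G 5-FU, 5.70 to 9.62 CPM in W329G DMSO, 3.05 to 8.49 CPM in WT 5-FU and 5.92 to 9.53 CPM in WT DMSO libraries. In WT it was the one member lower under 5-FU in 4 of 4 pairs, by -0.56 ± 0.19 (-0.56 ± 0.17 with line and experiment as a replicate block), with -0.84 in experiment 1 and -0.32 in experiment 2, and the groups overlapped. Its W329G response was 0.02 ± 0.18 (edgeR adjusted p = 0.986), with 2 of 4 pairs higher. PHLPP2 ran from 25.1 to 46.4 CPM in W329G 5-FU, 19.7 to 49.2 CPM in W329G DMSO, 20.8 to 42.1 CPM in WT 5-FU and 20.5 to 40.9 CPM in WT DMSO libraries, and its W329G response was 0.05 ± 0.11 (edgeR adjusted p = 0.91). PHLPP2 shares 1068 exonic bases with MARVELD3 on the opposite strand, which had 274 counts in experiment 1 against 5395 for PHLPP2. The other genes that overlap exons of a member had at most 30 counts there, and whether counting used strand is not given in the sources used here.

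**Figure D1:**
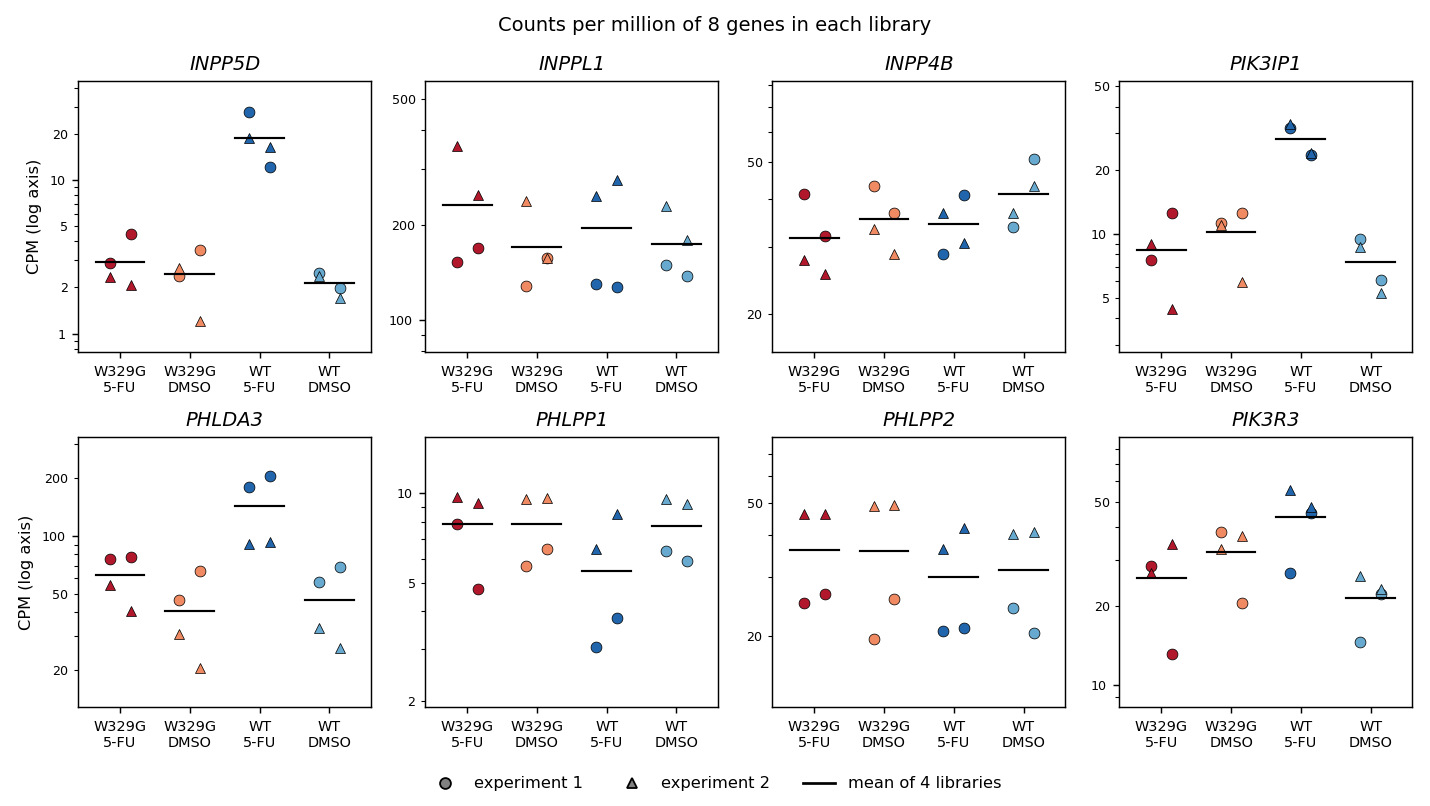
CPM (log axis) of the 8 genes in each of the 16 libraries, by group, with cells 1 on the left and cells 2 on the right of each group, circles for experiment 1, triangles for experiment 2 and a bar at the mean of 4 libraries. INPP5D and PIK3IP1 stand apart in WT 5-FU at 12.3 to 27.6 and 23.5 to 33.0 CPM, while INPPL1, INPP4B and PHLPP2 overlap in all groups.

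Read together, the 5-FU response in WT split the 8 genes into 4 that were higher and did not overlap with DMSO (INPP5D, PIK3IP1, PHLDA3 and PIK3R3) and 4 that overlapped. Over all genes tested, 3.44% did not overlap in that direction, and nothing is read from the count of 4, since this contrast served to choose members. The median response over the 8 genes was 0.56, against 0.01 over all genes tested. In W329G cells none of the 8 was called in the test without pairing, where 0.784% of all genes were. An unadjusted p under 0.05 was found for 2 of the 8, beside 2156 of all 16446 genes. The replicate block called 2 of 8 (PHLDA3 higher and PIK3R3 lower), where it called 10.9% of all genes, and DESeq2 called PHLDA3 alone, where it called 3.45%. The median W329G response over the 8 genes was 0.03, against 0.02 over all genes. The pairs of the 2 genotypes did not overlap in the response of the same 4 genes, all lower in W329G (5.9% of all genes tested), and nothing is read from that count either. The median of the difference, W329G minus WT, was -0.43 for the 8 genes and 0.01 for all genes. The responses of the 2 genotypes use separate DMSO libraries, but the difference is made of both, so it is no further evidence for either.

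**Figure D2:**
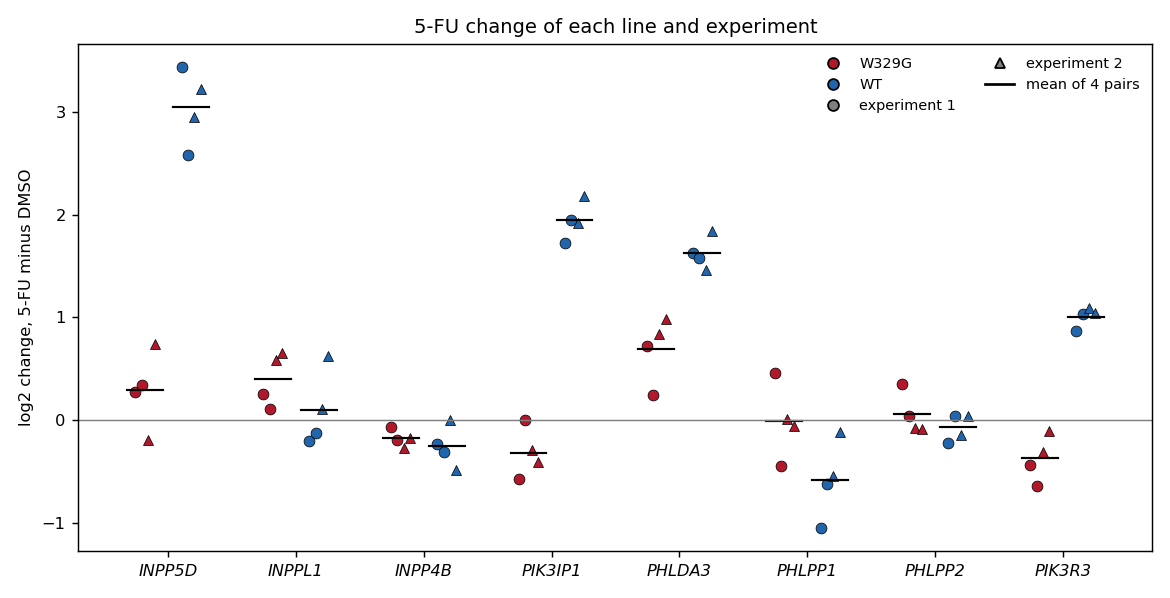
Change of log2 CPM (prior count 2) between the 5-FU and the DMSO library of a line in an experiment (5-FU minus DMSO) for the 8 genes, with W329G pairs in red left of WT pairs in blue, circles for experiment 1, triangles for experiment 2 and a bar at the mean of 4 pairs. WT pairs of INPP5D lie between 2.59 and 3.44 and W329G pairs between -0.19 and 0.74, and the pairs of PIK3IP1 and PIK3R3 lie on opposite sides of 0.

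Under DMSO, W329G and WT cells were compared on the counts of each line, added up across the experiments, to see whether the genotypes differed without 5-FU. None of the 8 members was called (1.38% of 17494 genes were), and 1 of them had an unadjusted p under 0.05, beside 3305 of the 17494 genes. That member was PIK3R3, at 32.3 ± 8.21 CPM in W329G DMSO and 21.6 ± 4.87 CPM in WT DMSO libraries (SD, n = 4 each). Its log2 fold change was 0.52 ± 0.13 (edgeR adjusted p = 0.085), and it ranged from 0.35 to 0.67 when each line was left out in turn. It passed in DESeq2 (adjusted p = 0.0129, where 7.32% of all genes were called) and in edgeR without a filter on low counts (adjusted p = 0.0451, where 3.74% were called). It did not pass in single libraries with an experiment term, where 0.93% of all genes were called. Nor did it pass with exchanged cell numbers, where 0.0114% were. The groups overlapped, with 20.5 CPM as the lowest W329G and 26.0 CPM as the highest WT library. PIK3IP1 had a log2 fold change of 0.47 ± 0.24 (edgeR adjusted p = 0.326), with 10.2 ± 2.92 CPM in W329G and 7.37 ± 2.04 CPM in WT. The remaining 6 members lay between -0.22 (INPP4B) and 0.19 (INPP5D), with adjusted p-values from 0.502 to 0.935 in edgeR. The median over the 8 was 0.04, against -0.002 over all genes.

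Under 5-FU the same comparison shares its WT libraries with the WT response, so its values are set beside that response and not counted as separate evidence. INPP5D was at -2.73 ± 0.24 (W329G over WT) beside a WT response of 3.12, PIK3IP1 at -1.85 ± 0.24 beside 1.94, PHLDA3 at -1.10 ± 0.13 beside 1.62, and PIK3R3 at -0.77 ± 0.13 beside 1.02. For INPP5D, PIK3IP1 and PHLDA3 all 4 W329G libraries were below all 4 WT libraries (5.07% of all genes tested), while PIK3R3 overlapped through the WT library of cells 1 in experiment 1. Nothing is read from that count, since the contrast served to choose members. The other 4 lay between -0.14 and 0.44, and the median over the 8 was -0.46, against -0.01 over all genes. PIK3R3 was thus at a log2 fold change of 0.52 under DMSO and -0.77 under 5-FU.

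Per kilobase of exon, the order of the 8 genes differed between groups. The levels that follow are CPM per kilobase, as mean over 4 libraries. In W329G 5-FU the order was INPPL1 (35.6), PHLDA3 (19.8), PIK3R3 (3.47), PHLPP2 (2.89), INPP4B (2.24), PIK3IP1 (2.19), PHLPP1 (0.862) and INPP5D (0.338). In W329G DMSO it was INPPL1 (26.1), PHLDA3 (13), PIK3R3 (4.36), PHLPP2 (2.88), PIK3IP1 (2.67), INPP4B (2.52), PHLPP1 (0.859) and INPP5D (0.281). In WT 5-FU it was PHLDA3 (45.3), INPPL1 (30.0), PIK3IP1 (7.38), PIK3R3 (5.93), INPP4B (2.43), PHLPP2 (2.41), INPP5D (2.16) and PHLPP1 (0.598). In WT DMSO it was INPPL1 (26.8), PHLDA3 (14.8), INPP4B (2.92), PIK3R3 (2.91), PHLPP2 (2.52), PIK3IP1 (1.94), PHLPP1 (0.849) and INPP5D (0.247). INPP5D was thus last in 3 groups, below PHLPP1 without overlap, and in WT 5-FU it was above PHLPP1 without overlap and overlapped PHLPP2. In W329G 5-FU, W329G DMSO and WT DMSO the 4 genes ranked below INPPL1 and PHLDA3 each overlapped their neighbour in that order, and in WT 5-FU PIK3IP1 overlapped PIK3R3 and INPP4B overlapped PHLPP2. INPPL1 and PHLDA3 overlapped each other in all 4 groups and stayed above the other 6 without overlap.

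The genes whose pattern was most like that of INPP5D were found by Pearson's r of log2 CPM over the 16 libraries after each experiment's mean was taken off, among 11232 genes with a mean of at least 5 CPM. They were TM7SF3 (r = 0.959), PAPLN (0.957), TP53I3 (0.953), INKA2 (0.948) and BTG2 (0.945). For PIK3IP1 they were CALCOCO1 (0.954), INPP5D (0.939), KDM5B (0.932), PBXIP1 (0.928) and ORAI3 (0.928). Among the members, INPP5D and PHLDA3 had an r of 0.913 and INPP5D and PHLPP1 one of -0.797. These values describe likeness over libraries of 4 groups, of which WT 5-FU stands apart for both INPP5D and PIK3IP1, and come with no test.

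The other genes of the pathway were followed through a list of 75, of which 73 could be tested over all libraries and 74 in the sums per line. In the 5-FU response of WT, edgeR without pairing called 3 of 73 higher and none lower, beside 8.79% of all genes called. They were PIK3CD, the p110 delta catalytic subunit (0.79 ± 0.13, edgeR adjusted p = 0.00159), PPP2R5B, a regulatory subunit of the phosphatase PP2A (0.88 ± 0.22, edgeR adjusted p = 0.0199), and SESN3. With the replicate block 11 were called higher and 6 lower, beside 24.8% of all genes, and DESeq2 called 6 higher and 3 lower, beside 12.8%. In either experiment alone edgeR called none (10 and 7 with an unadjusted p under 0.05). Over all genes, experiment 1 alone called 205 of 15990 and experiment 2 alone 0 of 15986. Nothing is therefore read from a lack of calls in 1 experiment, here or in the comparisons that follow. The median over the list was 0.07, against 0.01 over all genes. None of the 11 other phosphoinositide phosphatases, the 8 AKT kinases and activating kinases, the 10 AKT substrates or the 13 receptors and adaptors was called in WT by edgeR without pairing, where 1, 1, 1 and 4 of them had an unadjusted p under 0.05. Over all genes, 3644 of 16446 had an unadjusted p under 0.05 there. The block called 1, 1, 1 and 4, and DESeq2 called 0, 0, 1 and 2, all lower.

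In W329G cells 2 of the 73 genes were called lower under 5-FU in the test without pairing and none higher, beside 0.784% of all genes called. Both are FOXO target genes: CCNG2, an atypical cyclin (-0.81 ± 0.16, edgeR adjusted p = 0.037), and BCL2L11, which encodes the cell death protein BIM (-0.49 ± 0.10, edgeR adjusted p = 0.04). Both were lower in 4 of 4 pairs, and neither was called when any 1 W329G pair was left out. The replicate block called 4 higher and 14 lower, beside 10.9% of all genes, and in either experiment alone edgeR called none (8 and 9 with an unadjusted p under 0.05). The difference of the responses called 2 of 73, both lower in W329G, beside 1.2% of all genes, and with the replicate block 1 higher and 7 lower, beside 6.14%. The 2 were CCNG2 and SESN3, and in either experiment alone edgeR called none (6 and 5 with an unadjusted p under 0.05).

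SESN3, a sestrin that restrains mTORC1, had 65.2, 36.3, 45.2 and 63.2 CPM in W329G 5-FU and 78.9, 55.7, 68.3 and 89.5 CPM in W329G DMSO libraries. WT libraries had 80.0, 90.5, 115.8 and 120.9 CPM under 5-FU, against 47.3, 44.1, 53.1 and 61.9 CPM under DMSO. All 4 WT pairs were higher and all 4 W329G pairs lower under 5-FU. The WT response was 0.97 ± 0.18 (edgeR adjusted p = 0.00278), and the difference, W329G minus WT, was -1.45 ± 0.25 (edgeR adjusted p = 0.00834). CCNG2 had 38.9, 29.9, 27.0 and 34.4 CPM in W329G 5-FU and 63.4, 48.0, 54.5 and 63.6 CPM in W329G DMSO libraries. WT libraries had 59.6, 47.1, 65.8 and 61.0 CPM under 5-FU, against 47.5, 31.2, 41.8 and 50.7 CPM under DMSO. W329G groups did not overlap (2.62% of all genes tested, lower) while the WT groups did, and the difference was -1.26 ± 0.23 (edgeR adjusted p = 0.0117). Without WT replicate 2, 1 of these 2 genes was called in the difference. The test of the difference took the 4 libraries of a group as replicates, though they come from 2 lines of each genotype. Its p-values therefore do not measure the spread between lines.

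The 16 genes of the FOXO target list, genes that FOXO factors are known to switch on, had a median difference of -0.32, against 0.01 over all genes. Of the 16, 15 were below 0, beside 7986 of all 16446 genes. In W329G the median response was -0.32 with 12 of 16 negative (7678 of all 16446 genes), and edgeR without pairing called 2 lower, beside 0.784% of all genes called. The replicate block called 1 higher and 6 lower there, beside 10.9%, and DESeq2 3 lower, beside 3.45%. In WT the median was 0.32 with 13 of 16 positive (8421 of all 16446 genes), and edgeR without pairing called 1 higher, beside 8.79% of all genes. The replicate block called 7 higher and 1 lower there, beside 24.8%, and DESeq2 4 higher, beside 12.8%. In the difference edgeR without pairing called 2 of 16 lower, beside 1.2% of all genes. With the replicate block it called 4 lower, beside 6.14%: SESN3, CCNG2, FBXO32 (-1.41 ± 0.19) and PDK4 (-1.20 ± 0.33). TNFSF10 (group means of 0.549 to 0.773 CPM) and PDK4 (1.33 to 2.09 CPM) were low. The list was chosen with earlier results of these data known, so its direction is a description only.

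**Figure D3:**
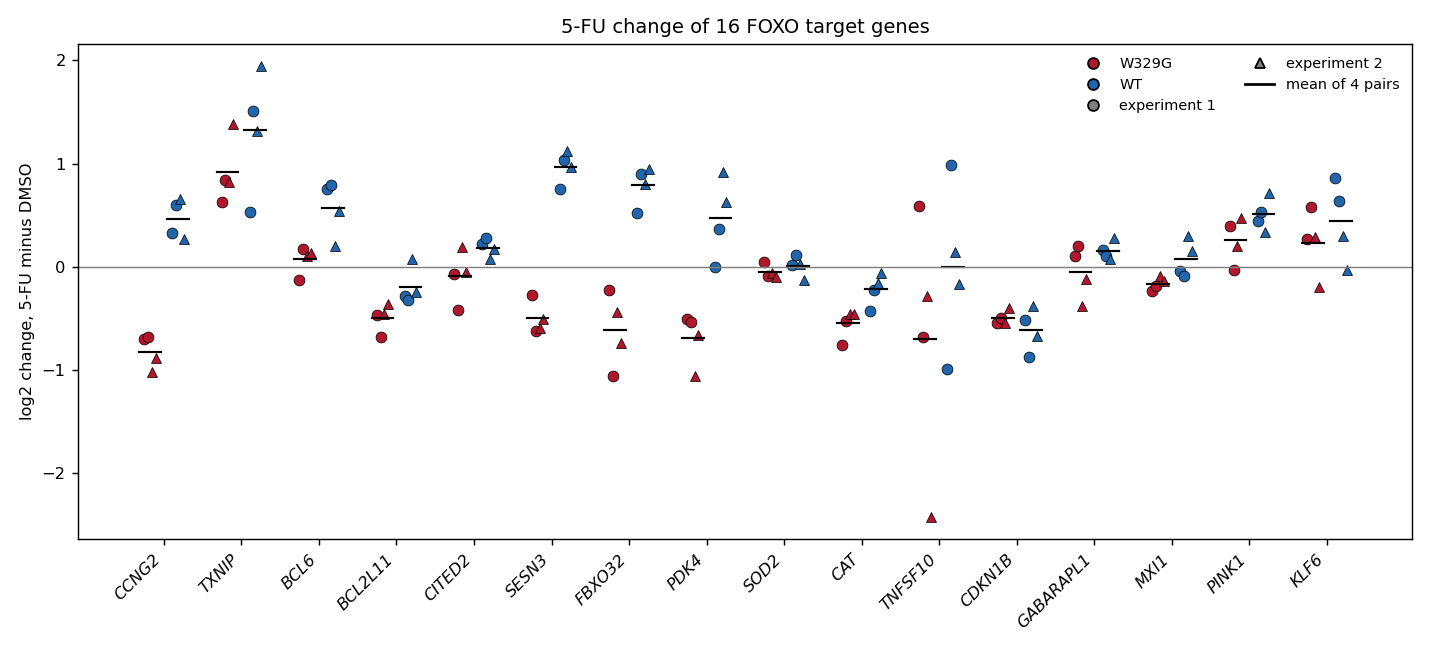
Change of log2 CPM (prior count 2) between the 5-FU and the DMSO library of a line in an experiment (5-FU minus DMSO) for 16 FOXO target genes, with W329G pairs in red left of WT pairs in blue, circles for experiment 1, triangles for experiment 2 and a bar at the mean of 4 pairs. In CCNG2, SESN3 and FBXO32 all W329G pairs lie below 0 and all WT pairs above it, and TNFSF10 scatters most.

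Under DMSO, edgeR called 3 of 74 listed genes between W329G and WT, all higher in W329G and all from the FOXO target list, beside 1.38% of all genes. DESeq2 on the same sums called 13, of which 9 were higher and 4 lower and 5 came from the FOXO target list, beside 7.32% of all genes. GABARAPL1, an autophagy gene, averaged 49.0 ± 8.92 CPM in W329G and 20.9 ± 4.53 CPM in WT libraries (1.31 ± 0.13, edgeR adjusted p = 0.00682), without overlap (1.59% of all genes tested, higher). CDKN1B, the cyclin kinase inhibitor p27, was at 0.92 ± 0.16 (edgeR adjusted p = 0.0381), and MXI1, a MAX partner, at 0.63 ± 0.11 (edgeR adjusted p = 0.0398). Under 5-FU 16 of 74 were called, 6 higher and 10 lower in W329G, beside 14.3% of all genes. Among them, CCNG2 (-0.87 ± 0.11), SESN3 (-0.98 ± 0.10) and FBXO32 (-2.11 ± 0.29) were lower, as were PHLDA1, a relative of PHLDA3 (-1.89 ± 0.30), PIK3CD (-0.51 ± 0.14), GSK3B (-0.41 ± 0.10), TBC1D4 (-0.77 ± 0.11) and the receptor PDGFRA (-0.69 ± 0.12). GABARAPL1 (1.09 ± 0.13), the insulin receptor INSR (0.76 ± 0.18) and the adaptors GAB1 (0.62 ± 0.15) and GAB2 (0.80 ± 0.14) were higher. These adjusted p-values in edgeR lay between 0.000811 and 0.0432. Without 5-FU, PHLDA1 (-0.945 and -0.959 in experiments 1 and 2 alone) and PDGFRA (-0.681 and -0.292) were also lower in W329G. GAB2 (0.445 and 0.664) was also higher there. FBXO32 (-1.404 and -0.052), TBC1D4, GABARAPL1, INSR and GAB1 kept their side of 0 as well. CCNG2 (0.521 and 0.351) and SESN3 (0.576 and 0.453) were higher in W329G under DMSO, and PIK3CD and GSK3B differed in sign between the experiments. The counts rest on the lines as labelled: with the cell numbers exchanged in experiment 2, none of 74 was called by edgeR under DMSO or under 5-FU (10 and 17 with an unadjusted p under 0.05), where 0.0114% and 1.27% of all genes were. Without W329G cells 1 there were 0 calls under DMSO and 2 under 5-FU, and without W329G cells 2 there were 0 and 0. Leaving out WT cells 1 gave 1 call under DMSO, and leaving out WT cells 2 gave 21. In either experiment alone edgeR called none under DMSO (4 and 9 with an unadjusted p under 0.05) and none under 5-FU (20 and 13).

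**Figure D4:**
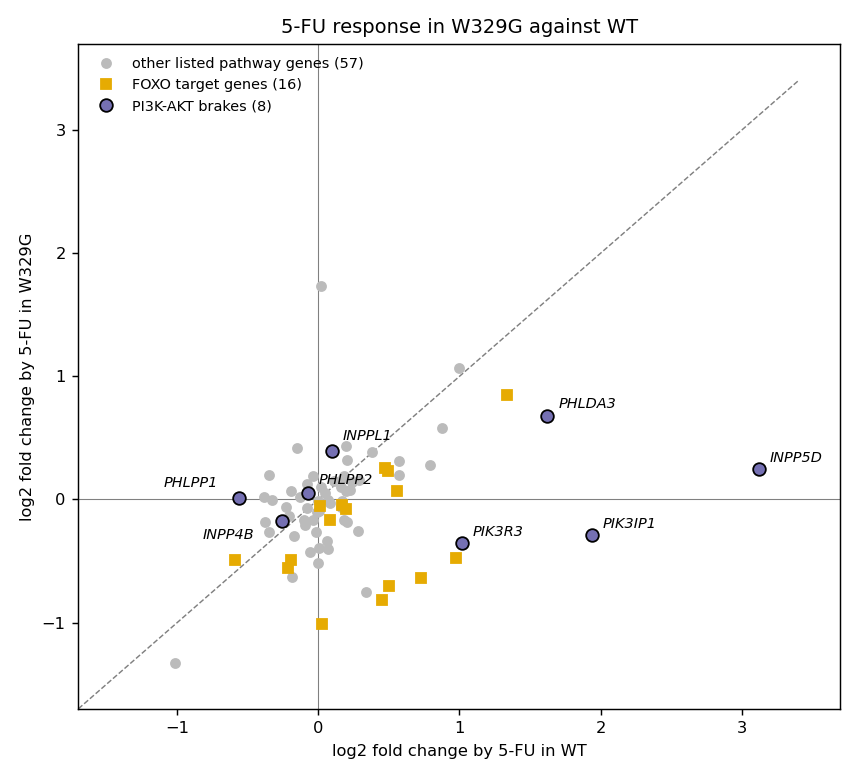
Log2 fold change by 5-FU in W329G (vertical axis) against that in WT (horizontal axis) for the 8 genes, the 16 FOXO target genes and the 57 other listed genes of the pathway that could be tested, with a dashed line where both are equal. INPP5D, PIK3IP1 and PIK3R3 lie far right of the line at WT values of 3.12, 1.94 and 1.02 and W329G values of 0.25, -0.29 and -0.35.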

How the data were processed

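Per the labels' protocols, TruSeq libraries were prepared from poly-A RNA. The authors deposited raw counts per gene, 1 table per library. Per the file headers, experiment 1 lists Ensembl genes with exon coordinates and length, and experiment 2 lists gene symbols. The aligner, the counter and its use of strand: not given in the sources used here. Per the submitters' processing notes the build was hg19, but the coordinates of experiment 1 are those of GRCh38 (96.3% of 56898 genes have the start and end of GENCODE release 29). The largest counts of experiment 2 appear rounded, since the 26 values with 7 or more digits all end in 0. The genes were matched by symbol, 28443 directly and 275 through an older symbol; 15 ambiguous symbols and 13 copies of MTRNR2L were left out, and 97.93% to 98.93% of counts remained.

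Groups and cell numbers came from the sample titles. Counts were tested with edgeR 4.0.16 in R 4.3.3 (quasi-likelihood F test, TMM, filterByExpr, Benjamini-Hochberg adjustment over all genes, threshold 0.05). The 5-FU responses and their difference were fitted on 16 libraries with a term for experiment, and the genotype comparisons on 8 sums per line. SE is the absolute log2 fold change over the root of F. CPM use TMM-scaled library sizes, and log2 CPM a prior count of 2. Whether the experiments used separate cultures is not stated, so a p-value reflects the spread between libraries that may be technical. DMSO and 5-FU libraries of one line and experiment are paired, since they come from the same cell line: across genes, the line difference under 5-FU had an r with that under DMSO of 0.708 and 0.632 in W329G and of 0.487 and 0.596 in WT. Between experiments the same difference correlated negatively (from -0.568 to -0.19), so that the cell numbers may not name the same lines in both. No pair of libraries from one group and experiment was alike within counting noise (chi-square of at least 60 for each degree of freedom).

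The members and lists were chosen with earlier results of these data known. Named are the 8 members, called genes of each list (smallest p first, up to 4 a list) and the 5 genes most like INPP5D and PIK3IP1; FBXO32 and PDK4 in the paired fit were picked once their values were known. Alternatives were DESeq2 1.42.0, its size factors, no filter, the replicate block, single libraries, exchanged cell numbers, each experiment alone, and leaving out each pair or line. The fits were tested on simulated data that held no line or experiment effects, so the simulation cannot show how the fits handle such effects. Some items under the naming rule are not reported here.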

Additional observations from a re-analysis of the deposited data

Results flagged for a closer look

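The response of PIK3IP1 to 5-FU lay on opposite sides of 0 in every pair of the 2 genotypes, with a mean difference, W329G minus WT, of -2.27 on the log2 scale, and that of PIK3R3 did so with -1.38. For both this difference was not tested, since it served to choose members, and 1 W329G pair of PIK3IP1 was only at -0.002. CCNG2 (-1.26) and SESN3 (-1.45) were called in the edgeR test of the difference, but in neither experiment alone. A fit of 1 experiment has 2 libraries a group, so nothing is read from that lack of calls. Both are on the FOXO target list, which was chosen with earlier results of these data known, so these calls are a description too. In the 32 groups of 4 libraries of the 8 members, no library stood far enough from the others to be singled out.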

How the results depend on the processing

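The number of listed genes called depended on the fit. In the WT response it was 3, and it was 9 in DESeq2, 17 with the replicate block, 2 to 4 when a pair was left out and 0 in each experiment alone (10 and 7 with an unadjusted p under 0.05 in edgeR). In the W329G response it was 2, and it was 7 in DESeq2, 18 with the replicate block, 0 to 0 when a pair was left out (edgeR, 10 to 19 unadjusted; DESeq2 was not run there) and 0 in each experiment alone (8 and 9 unadjusted). In the difference it was 2, and it was 8 with the replicate block, 1 to 2 when a pair was left out and 0 in each experiment alone (6 and 5 unadjusted in edgeR). Between genotypes under DMSO it was 3, and it was 13 in DESeq2, 8 without a filter, 6 in single libraries with the replicate block, 0 with exchanged cell numbers (10 unadjusted in edgeR), 0 to 21 when a line was left out and 0 in each experiment alone (4 and 9 unadjusted). Under 5-FU it was 16, and it was 0 with exchanged cell numbers (17 unadjusted in edgeR), 0 to 20 when a line was left out and 0 in each experiment alone (20 and 13 unadjusted). One experiment alone has 2 libraries a group, so nothing is read from its 0 calls. A left-out line leaves 1 sum on its side, which is assumed to vary like the others. For other settings the cause was not tested.

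Some members changed sign. The W329G response of PHLPP1 was -0.034 in experiment 2 alone and from -0.158 to 0.141 when a pair was left out, and that of PHLPP2 -0.094 and from -0.035 to 0.098. Under DMSO INPP5D was -0.069 in experiment 2 alone and from -0.004 to 0.394 when a line was left out, INPPL1 ran from -0.274 to 0.098, and PHLPP1 was 0.012 in single libraries, 0.013 with their replicate block, 0.002 and 0.032 in the experiments alone and from -0.129 to 0.053 when a line was left out. In these 2 tested comparisons no other value of a member changed sign, and 5 values (of PHLDA3 and PIK3R3, given above) newly passed the threshold. Among values given without a test, the WT response of INPPL1 was -0.158 in experiment 1 alone and from -0.072 to 0.205 when a pair was left out, INPP4B under 5-FU was 0.076 in experiment 1 alone and from -0.291 to 0.008 when a line was left out, and the difference of PHLPP2 was -0.048 in experiment 2 alone. The replicate block changed no other call of a member in the W329G response. Depth limits INPP5D most, with 37 counts in its lowest library.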
